A study of Solanum lycopersicum with 6 samples.

Results

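ATP-binding cassette (ABC) transporters are the membrane pumps and related soluble proteins that a plant cell drives by ATP hydrolysis. Genes of this family were found as those whose deposited description or best protein-database hit (the Blast column of the per-library tables) contained "ABC transporter" or "ATP-binding cassette", which gave 99 of the 21708 genes listed in any library. Their subfamily letter was read from the best hit, which put 6 genes in A, 17 in B, 17 in C, 2 in D, 2 in E, 6 in F, 31 in G and 8 in I, and left 10 with no letter. RNA was sequenced from the exocarp, the outer layer of the tomato fruit, in 3 libraries of wild type (WT) and 3 libraries of a knockout of SlNOR-like1, a NAC transcription factor. All 6 libraries were labelled MG for the fruit stage. The deposited tables name a single mutant line, and the labels do not say whether replicates came from separate plants, so every p-value is set against the spread among these libraries alone, which may be technical. In a tissue sample, fewer cells of a type and less RNA per cell cannot be told apart.

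ABC proteins bind ATP at paired nucleotide-binding domains, and in the transporters this moves a substrate across a membrane. In plants the G subfamily includes exporters of cutin precursors and waxes to the cuticle, and carriers of hormones and defence compounds. The B subfamily includes auxin transporters and organelle-membrane proteins, the C subfamily loads glutathione conjugates and other anions into the vacuole, the A and D subfamilies handle lipids and fatty acyl groups, the E and F proteins have no membrane domain and act at the ribosome or in other soluble complexes, and the I proteins are mostly single domains that assemble with partners encoded elsewhere.

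The libraries held 8503210 to 17578533 assigned counts each, with the WT libraries deeper (11459875 to 17578533) than the mutant ones (8503210 to 11023036). The targeted gene, SlNOR-like1 (Solyc07g063420.3), stood at 130, 114 and 121 CPM (counts scaled to a common library total, with TMM factors) in WT and at 24.5, 16.9 and 18.1 CPM in nor-like1. Its log2 fold change was -2.61 ± 0.16 (SE, n = 3 and 3; edgeR adjusted p = 0.000532), and no mutant library reached any WT library. WT replicate 3 stood apart. On the axis of largest variance over all tested genes, which carried 70.1% of it, this library scored -23.2, against -74.6 and -61.8 for WT replicates 1 and 2 and 41.0 to 60.8 for the mutant libraries. Of 7 epidermis and cuticle markers chosen, 6 were listed, none was at 0 in any WT library, and their summed level was 2667 to 3114 CPM in WT and 6963 to 8444 CPM in nor-like1, with 2 called higher (CER3 and a lipid-transfer protein, which hold most of the sum) and 2 lower (GPAT6 and CYP86A69). Xylem markers (4 genes listed, 2 called higher) summed to 95.1 to 103 CPM in WT and 192 to 268 CPM in nor-like1. Phloem markers (20 genes, 1 higher and 1 lower) summed to 168 to 221 and 162 to 280 CPM, and seed markers (17 genes, none called) to 14.6 to 23.5 and 10.8 to 15.5 CPM, with 3 phloem and 2 seed genes at 0 in all WT libraries. The part of these marker shifts in the results below was not tested.

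Within the ABC family, 65 of the 99 genes had enough counts to be tested. Of these, 9 were higher and 10 lower in nor-like1 at an adjusted p below 0.05 by edgeR's quasi-likelihood test, and 46 were not called. The called share was 29.2%, against 21.9% of all 16380 genes tested. The higher share was 13.8%, against 10.5%, and the lower share 15.4%, against 11.4%. Of the called members, 11 differed by at least 2-fold, which is 16.9% of the tested members, against 8.36% of all tested genes. The WT and mutant libraries did not overlap in CPM for 35 of the 65 members (53.8%), against 42.9% of all tested genes. The median log2 fold change was 0.08 over the 65 members and -0.005 over all tested genes, while the median size of the change, regardless of sign, was 0.38 and 0.31. By subfamily, the calls were as follows. In G, 5 of 17 tested members were higher and 1 lower. In C, 2 of 11 were higher and 1 lower. In B, 1 of 10 was higher and 1 lower, and in A 1 of 4 was higher. The calls in D (1 of 2), F (2 of 6), I (2 of 8) and among members with no letter (2 of 5) were all lower. Neither of the 2 E members was called. With so few tested members in these classes, the lack of higher calls is a description. No test between subfamilies was run.

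**Figure D1:**
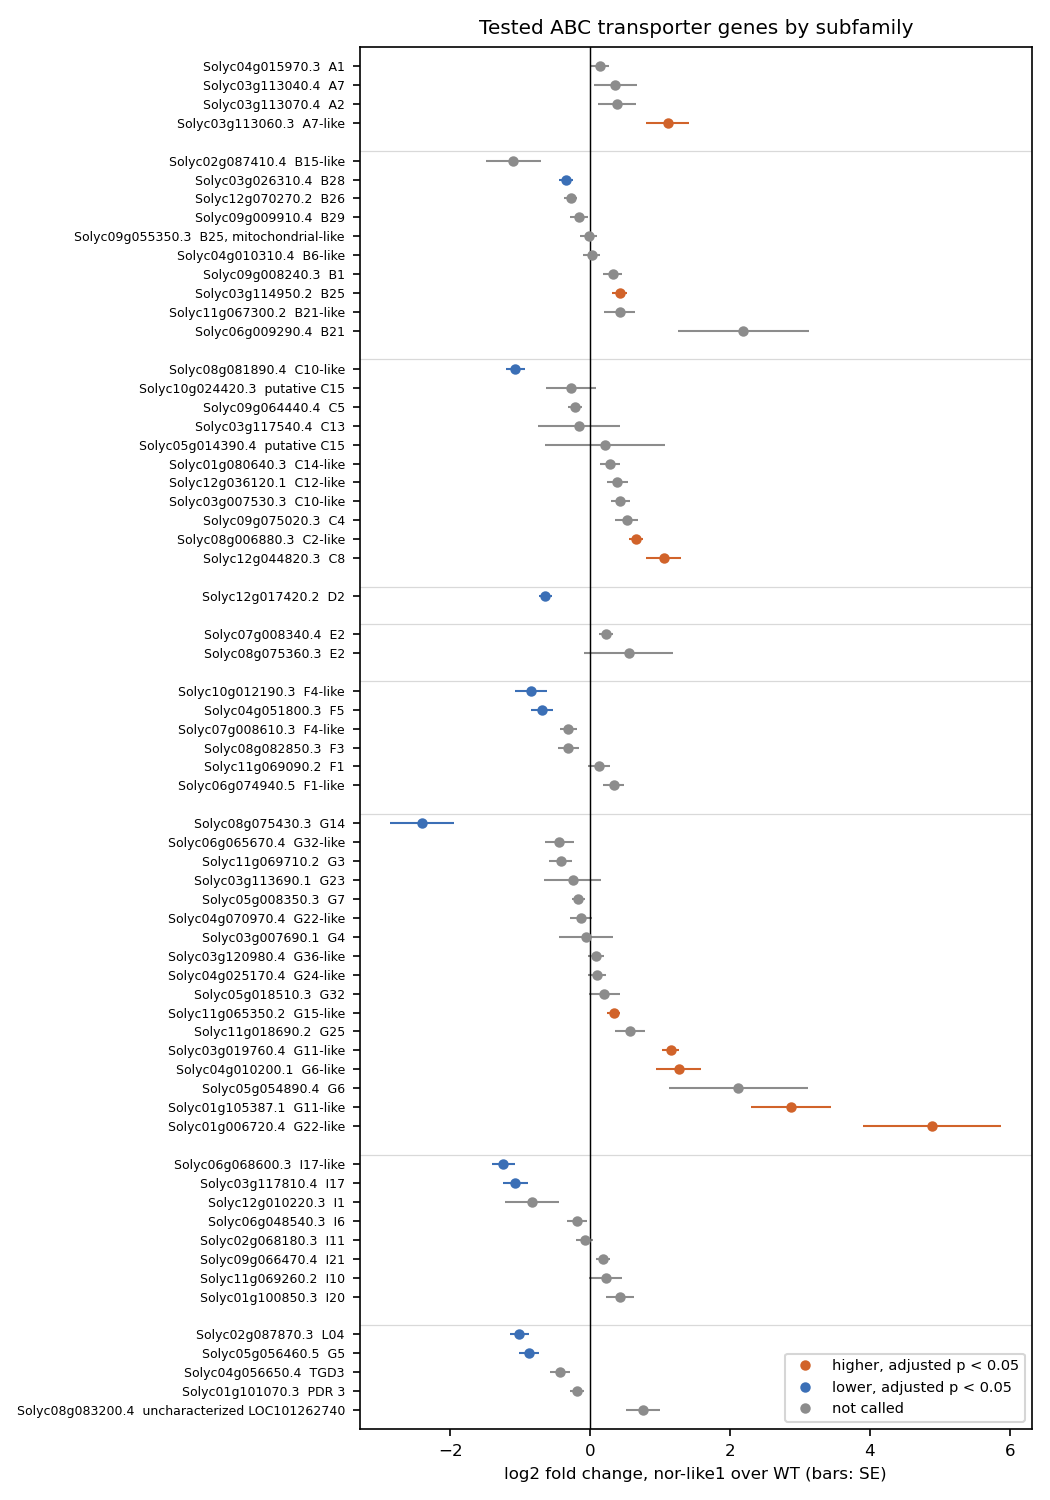
Log2 fold change (nor-like1 over WT, bars show SE) of 64 of the 65 tested ABC genes, grouped by subfamily from A at the top to the members with no letter at the bottom. Orange points are the 9 called higher, blue points the 10 called lower and grey points those not called. The G block holds the widest spread, from -2.40 to 4.89. The blue points in D, F and I, classes with few tested members, have no orange counterpart.

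By level per transcript length, the family was uneven. ABCF1 (Solyc11g069090.2) alone supplied 38.2% of the family's summed FPKM (fragments scaled to transcript length and library total, as deposited), with 783 ± 121 FPKM in WT and 843 ± 38.2 FPKM in nor-like1 (SD, n = 3 each). ABCF3 (Solyc08g082850.3) was the only other member with a mean above 100 FPKM over the 6 libraries, 35 members were above 10 and 41 below 1. The summed FPKM of the family was 1984 to 2262 in WT and 2024 to 2175 in nor-like1, so the groups overlapped. Without ABCF1 the family's sum was 1359 ± 28.2 FPKM in WT and 1273 ± 44.2 FPKM in nor-like1 (SD, n = 3 each). The F sum without ABCF1 was 356 ± 37 FPKM in WT and 271.4 ± 26 FPKM in nor-like1. Between subfamilies, the sums of D lay outside the WT range in every mutant library: 96.1, 94.1 and 93.5 in WT and 72.8, 70.8 and 78.0 in nor-like1. The members with no letter did the same, at 108, 115 and 98.6 against 81.7, 70.7 and 78.8. D has only 2 members, and ABCD2, whose own fall is given below, held 58.0% of the D sum over the 6 libraries. The sums of B, C, F, G, I and E overlapped between genotypes, and those of A ranged from 13.8 to 17.2 in WT and from 16.9 to 23.4 in nor-like1. These sums are descriptions without a test.

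**Figure D2:**
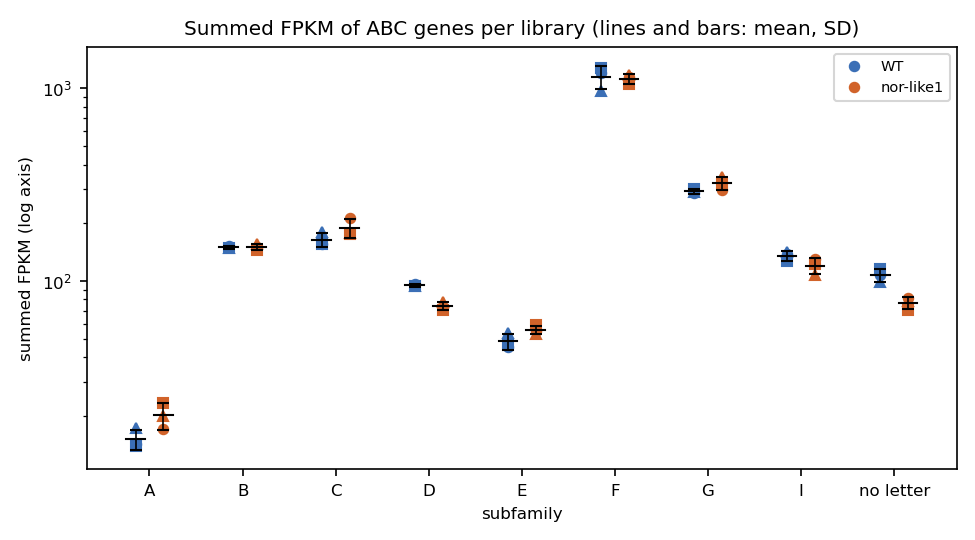
Summed FPKM of each ABC subfamily in every library (log axis; blue WT, orange nor-like1; horizontal lines and bars show mean and SD, n = 3). F lies near 1100 in both genotypes and carries most of the family's summed FPKM, and D and the members with no letter are the classes in which all mutant points lie below all WT points.

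The G subfamily contained homologs of known exporters of cuticle or pollen wall lipids. In Arabidopsis, ABCG11 and ABCG12 export wax, ABCG11 also exports cutin, and ABCG32 exports cutin precursors. Best hits named ABCG11, ABCG12, ABCG13, ABCG15 or ABCG32 covered 8 members, of which 5 were tested, 3 were higher, none was lower and 2 were not called. ABCG5, a cuticle gene in Arabidopsis that is given below, has no best hit. It was therefore outside this name list, and it was called lower. Among all tested genes 10.5% were higher and 11.4% lower, and with 5 members the count is a description. The summed cuticle markers were higher in the same mutant libraries, although singly 2 of them were called higher and 2 lower. The part of these markers in the count was not tested. ABCG11-like Solyc03g019760.4 was the clearest of the 3 higher members. It stood at 54.7, 62.7 and 57.3 CPM in WT and at 119, 123 and 147 CPM in nor-like1. Every mutant library was well above every WT library, the log2 fold change was 1.15 ± 0.12 (SE; adjusted p = 0.00272), and its mean level was 21.3 FPKM in WT and 46.6 FPKM in the mutant. The call held when any 1 library was left out.

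A second ABCG11-like gene, Solyc01g105387.1, was far less abundant. It stood at 0.581, 0.0885 and 0.486 CPM in WT and at 4.65, 2.34 and 2.14 CPM in nor-like1, from 19 counts in all WT libraries and 93 in all mutant ones. The groups were well apart and the log2 fold change was 2.87 ± 0.57 (adjusted p = 0.0154, kept without any 1 library). The other two ABCG11-like members were too low to test, with 13 WT and 38 mutant counts for Solyc01g105450.4 and 2 and 2 counts for Solyc05g051530.5. ABCG15-like Solyc11g065350.2, described by the authors' annotation as an ABCG12 protein, was the most abundant G member by FPKM (55.9 in WT and 69.5 in nor-like1). Its CPM was 132, 129 and 130 in WT and 163, 158 and 173 in nor-like1. The rise was narrow but free of overlap, with a log2 fold change of 0.34 ± 0.093 (adjusted p = 0.0413), and the call was lost when any 1 library was left out (0.056 to 0.135). Its neighbour in the RefSeq gene order (assembly SLM_r2.1), with no protein-coding gene between them, is a second ABCG15-like gene, Solyc11g065360.2, which had 2 counts in WT and 3 in nor-like1.

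Neither ABCG32 member was called. ABCG32 (Solyc05g018510.3) stood at 114, 131 and 121 CPM in WT and 98.9, 134 and 186 CPM in nor-like1, overlapping groups whose log2 fold change was 0.20 ± 0.22 (adjusted p = 0.546). ABCG32-like (Solyc06g065670.4) was at 97.4, 104 and 94.2 CPM in WT and 51.0, 73.3 and 93.5 CPM in the mutant. Its mutant libraries ran from far below WT to just under the lowest WT library, and it was not called (-0.44 ± 0.207, adjusted p = 0.164).

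Suberin-related names formed another group among G members, chosen after its values were seen. Arabidopsis ABCG2, ABCG6 and ABCG20 are required for suberin barriers. ABCG6-like Solyc04g010200.1 stood at 3.37, 2.74 and 4.98 CPM in WT and 8.02, 12.6 and 6.41 CPM in nor-like1, without overlap (log2 fold change 1.27 ± 0.322, adjusted p = 0.0323). The call was lost on removal of WT replicate 1 (0.102) or 2 (0.112) or of mutant replicate 2 (0.107). ABCG6 (Solyc05g054890.4) stood at 0.174, 0.531 and 4.74 CPM in WT and 4.65, 10.99 and 8.79 CPM in nor-like1. Here WT replicate 3 sat within the mutant range while the other WT libraries were near 0, and the gene was not called (2.12 ± 0.992, adjusted p = 0.173). Without WT replicate 3 the value was 4.60 with an adjusted p of 0.00472. ABCG20 (Solyc09g005970.1) was not tested, with 2 counts summed over WT and 16 summed over nor-like1. Per assigned count that is a 12.3-fold difference with a 95% counting interval of 2.88 to 110, which covers counting error only. The remaining ABCG6-like gene, Solyc04g010210.1, was also not tested and leaned the other way, with 4 WT counts and 1 mutant count.

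Single G members, some with hormone-related names, differed in direction. ABCG14 (Solyc08g075430.3), whose Arabidopsis counterpart carries cytokinin from root to shoot, stood at 31.3, 26.5 and 9.48 CPM in WT and at 4.28, 4.48 and 3.92 CPM in nor-like1. WT replicate 3 was about a factor of 3 below the other WT libraries but still above every mutant library. Its log2 fold change of -2.40 ± 0.459 (adjusted p = 0.0174) was the largest decrease among tested members. The adjusted p was 0.000497 without WT replicate 3, and the call was lost without WT replicate 2 (0.0641) or mutant replicate 2 (0.0685) or 3 (0.0656). ABCG22-like Solyc01g006720.4, which the authors' annotation describes as ABCG27, had 0, 1 and 2 counts in the WT libraries and 50, 10 and 10 in nor-like1. nor-like1 replicate 1 held most of the mutant counts. The ratio of counts per assigned count was 35.8, with a 95% counting interval of 11.7 to 178, which covers counting error only. The gene's call (adjusted p = 0.0165) was lost without WT replicate 1 (0.0564) or WT replicate 2 (0.0683). The fitted log2 fold change ran from 3.82 without nor-like1 replicate 1 to 5.62 without WT replicate 3, with 4.26 without WT replicate 1. The more abundant ABCG22-like copy, Solyc04g070970.4, overlapped between genotypes, at 70.1 to 90.8 CPM in WT and 62.4 to 85.8 CPM in nor-like1 (adjusted p = 0.56; chosen after its values were seen). ABCG25 (Solyc11g018690.2), an abscisic acid exporter in Arabidopsis, stood at 14.3, 15.4 and 14.9 CPM in WT and 15.04, 26.6 and 24.7 CPM in nor-like1. Only nor-like1 replicate 1 stayed near WT, and the gene was not called (0.57 ± 0.212, adjusted p = 0.0944), although it was without that library (0.79, adjusted p = 0.00984). It was also chosen after its values were seen.

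The remaining abundant G members were not called. ABCG7 (Solyc05g008350.3) had 215, 207 and 223 CPM in WT and 184, 192 and 197 CPM in nor-like1, a gap without overlap but not called (-0.17 ± 0.096, adjusted p = 0.238). ABCG36-like (Solyc03g120980.4), related to an Arabidopsis pump of defence against fungi, was at 136 to 159 CPM in WT and 143 to 174 CPM in the mutant (0.08 ± 0.117, adjusted p = 0.629; chosen after its values were seen). ABCG5 (Solyc05g056460.5) has no best hit and owes its letter to the description, so it was counted among members with no letter. Arabidopsis ABCG5 is required for the seedling cuticle. It stood at 63.3, 63.9 and 53.8 CPM in WT and at 38.1, 28.1 and 32.8 CPM in nor-like1. All mutant libraries were below all WT libraries, and the log2 fold change was -0.87 ± 0.14 (adjusted p = 0.00843), kept without any 1 library. Reading letters from the description as well moved G to 33 members, of which 5 were higher and 2 lower among 18 tested.

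**Figure D3:**
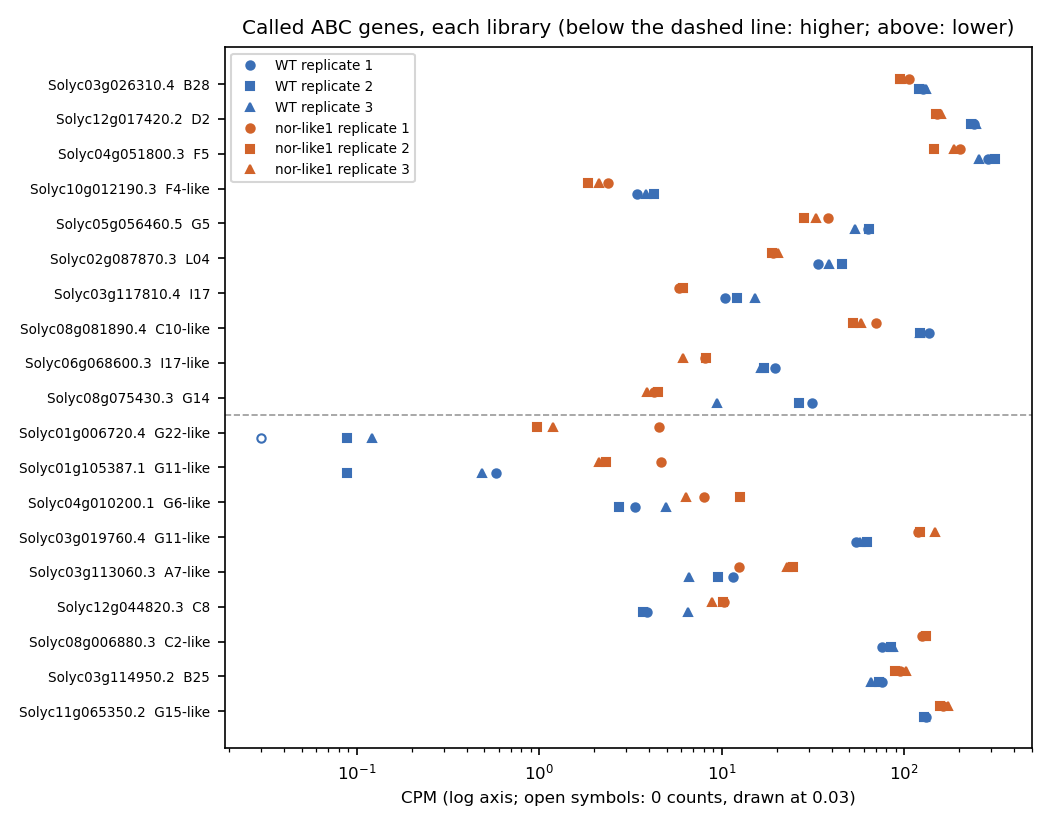
CPM (log axis) of the 19 called ABC genes in each library; blue symbols are WT and orange nor-like1, with 1 symbol shape per replicate, and an open symbol marks 0 counts drawn at 0.03. The 10 genes above the dashed line were lower in nor-like1 and the 9 below it higher, and no gene's mutant libraries overlap its WT libraries. WT replicate 3 of ABCG14 (9.48 CPM) lies between the other WT libraries and the mutant ones.

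Among C members, which include vacuolar pumps for glutathione conjugates, 11 of 17 were tested, 2 were higher and 1 lower. The called share was 27.3%, against 21.9% of all tested genes. ABCC2-like (Solyc08g006880.3), related to Arabidopsis pumps of glutathione conjugates and phytochelatins, had 75.4, 85.2 and 87.1 CPM in WT and 126, 133 and 131 CPM in nor-like1. The mutant libraries were tightly grouped well above WT, with a log2 fold change of 0.65 ± 0.1 (adjusted p = 0.00747, kept without any 1 library). ABCC8 (Solyc12g044820.3) was lower in level, at 3.89, 3.72 and 6.56 CPM in WT and 10.3, 10.2 and 8.91 CPM in nor-like1 (1.05 ± 0.247, adjusted p = 0.0262). WT replicate 3 was nearest to the mutant, and the call was lost on removal of WT replicate 1 (0.0838) or 2 (0.0925) or of mutant replicate 2 (0.0887) or 3 (0.0621).

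The ABCC10-like pair differed in sign, with 1 of them called. ABCC10-like Solyc08g081890.4 stood at 136, 122 and 123 CPM in WT and at 70.5, 52.5 and 57.7 CPM in nor-like1, a fall of 1.07 on the log2 scale (SE 0.134, adjusted p = 0.00432) that was kept without any 1 library. The other, Solyc03g007530.3, stood at 56.4, 57.5 and 72.8 CPM in WT and at 76.2, 89.9 and 86.4 CPM in nor-like1, free of overlap but not called (0.43 ± 0.134, adjusted p = 0.0573; chosen after its values were seen). The 2 most abundant C members by FPKM, ABCC14-like (Solyc01g080640.3) and ABCC4 (Solyc09g075020.3), were not called. ABCC4 stood at 179, 200 and 228 CPM in WT and 357, 266 and 248 CPM in nor-like1, with the largest value in nor-like1 replicate 1 (0.52 ± 0.171, adjusted p = 0.068). ABCC14-like overlapped between genotypes, at 217 to 277 CPM in WT and 271 to 334 CPM in nor-like1 (adjusted p = 0.188). Of 4 ABCC12-like genes, only Solyc12g036120.1 was tested, at 9.42 to 12.2 CPM in WT and 13.4 to 13.8 CPM in nor-like1 (adjusted p = 0.0956), and the others never passed 0.273 CPM. A gene named ABCC15 (Solyc05g014390.4) was the least reproducible of the C members, at 9.12, 3.63 and 5.53 CPM in WT and 16.1, 3.79 and 1.07 CPM in nor-like1. Both ABCC12-like and ABCC15 were named after their values were seen.

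The B subfamily covers auxin transporters and organelle-membrane proteins, and 10 of its 17 members were tested. 1 was higher and 1 lower (20% called, against 21.9% of all tested genes). ABCB25 (Solyc03g114950.2), so named by its best hit and described by the authors' annotation as ABCB27, had 75.2, 72.8 and 66.2 CPM in WT and 95.3, 88.6 and 103 CPM in nor-like1 (0.42 ± 0.104, adjusted p = 0.0308). ABCB28 (Solyc03g026310.4) had 127, 121 and 132 CPM in WT and 107, 95.2 and 96.4 CPM in nor-like1 (-0.35 ± 0.098, adjusted p = 0.0452). Neither gene's groups overlapped, but both calls were fragile: that of ABCB25 was lost without WT replicate 1 (0.081) or 2 (0.0949) or nor-like1 replicate 2 (0.0606) or 3 (0.0959), and that of ABCB28 was lost without WT replicate 1 (0.128), 2 (0.11) or 3 (0.0648) or nor-like1 replicate 2 (0.137) or 3 (0.126). The gene whose best hit is named mitochondrial ABCB25-like (Solyc09g055350.3), after the Arabidopsis exporter needed for cytosolic iron-sulfur proteins, was not called (-0.02 ± 0.125, adjusted p = 0.936; chosen after its values were seen).

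Of the 10 members with auxin-related names (ABCB1, ABCB4, ABCB15, ABCB19 or ABCB21), 4 were tested and none was called. Among all tested genes 21.9% were called, so with 4 members the count is a description. ABCB21 (Solyc06g009290.4), related to an Arabidopsis auxin transporter, stood at 0.232, 0.354 and 3.77 CPM in WT and 4.47, 9.24 and 6.89 CPM in nor-like1. WT replicate 3 was more than 10 times the other WT libraries and close to the mutant. The log2 fold change was 2.19 ± 0.934 (adjusted p = 0.142), and without WT replicate 3 it was 4.54 (adjusted p = 0.00272). ABCB1 (Solyc09g008240.3), an auxin exporter in Arabidopsis, was at 52.1 to 60.7 CPM in WT and 59.8 to 82.6 CPM in nor-like1 (0.32 ± 0.14, adjusted p = 0.143). ABCB15-like (Solyc02g087410.4) was at 1.03 to 1.51 CPM in WT and 0.475 to 0.820 CPM in nor-like1, without overlap but not called (-1.10 ± 0.391, adjusted p = 0.0842). ABCB21-like (Solyc11g067300.2) overlapped, at 6.73 to 8.93 CPM in WT and 8.11 to 12.7 CPM in nor-like1 (0.42 ± 0.217, adjusted p = 0.201). The other six were barely detected: none passed 1.03 CPM in any library, including all 4 named ABCB19-like (Solyc06g072950.4, Solyc06g072960.1, Solyc03g122050.1 and Solyc03g122070.3), and likewise ABCB15-like Solyc07g018130.2 and ABCB21-like Solyc06g009280.1.

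A and D proteins are known mainly as carriers of lipids and fatty acyl groups. ABCA7-like (Solyc03g113060.3) stood at 11.5, 9.56 and 6.62 CPM in WT and at 12.5, 24.6 and 22.8 CPM in nor-like1. nor-like1 replicate 1 lay just above the highest WT library and the other mutant libraries stood at about 2 times its level, giving 1.11 ± 0.309 (adjusted p = 0.0455), a call lost without WT replicate 1 (0.0709), 2 (0.131) or 3 (0.0746) or nor-like1 replicate 2 (0.142) or 3 (0.131). ABCA1 (Solyc04g015970.3), the most abundant A member by FPKM, overlapped between genotypes at 47.8 to 61.4 and 53.8 to 63.6 CPM (0.14 ± 0.128, adjusted p = 0.464), as did ABCA2 (Solyc03g113070.4) at 9.65 to 13.7 and 9.84 to 19.8 CPM (0.38 ± 0.273, adjusted p = 0.352). ABCD2 (Solyc12g017420.2), whose hit is named chloroplastic, stood at 241, 231 and 247 CPM in WT and at 152, 150 and 160 CPM in nor-like1. The groups were tight and far apart, with a fall of 0.64 on the log2 scale (SE 0.096, adjusted p = 0.00705) kept without any 1 library.

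The soluble E and F proteins included the most abundant members. ABCE2 (Solyc07g008340.4), related to the ribosome-recycling factor of yeast and animals, was at 109, 109 and 123 CPM in WT and 131, 138 and 128 CPM in nor-like1. The mutant libraries were all higher, by less than the test required (0.22 ± 0.1, adjusted p = 0.155). Its second copy, Solyc08g075360.3, was low and variable, at 0.814 to 1.88 CPM in WT and 0.475 to 3.502 CPM in nor-like1 (0.55 ± 0.64, adjusted p = 0.564). Of the 6 F members, all were tested and 2 were lower (33.3%, against 11.4% of all tested genes). ABCF5 (Solyc04g051800.3) stood at 289, 316 and 258 CPM in WT and at 202, 146 and 187 CPM in nor-like1 (-0.69 ± 0.154, adjusted p = 0.0224). ABCF4-like Solyc10g012190.3 stood at 3.43, 4.25 and 3.83 CPM in WT and at 2.37, 1.85 and 2.14 CPM in the mutant (-0.85 ± 0.231, adjusted p = 0.0399). Both were free of overlap. The call of ABCF4-like Solyc10g012190.3 was lost without any 1 library (0.0515 to 0.141) and by DESeq2 (0.0896). That of ABCF5 was lost without WT replicate 1 (0.0667) or 2 (0.0855) or nor-like1 replicate 2 (0.0597) or 3 (0.0643). A far more abundant ABCF4-like gene, Solyc07g008610.3, stood at 90.6 to 110 CPM in WT and 73.1 to 84.8 CPM in nor-like1. Its groups did not overlap, but it was not called (-0.31 ± 0.116, adjusted p = 0.0989; chosen after its values were seen). ABCF1 (Solyc11g069090.2) had 1999, 2063 and 1498 CPM in WT and 2039, 1935 and 2101 CPM in nor-like1, and WT replicate 3 was the lowest of all (0.13 ± 0.159, adjusted p = 0.587). ABCF3 (Solyc08g082850.3) had 528, 555 and 404 CPM in WT and 414, 362 and 427 CPM in nor-like1 (-0.31 ± 0.153, adjusted p = 0.189). Here WT replicate 3 lay among the mutant libraries. Without that library, ABCF3 was called, at -0.44 (adjusted p = 0.0476).

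All 8 I members were tested, and 2 were lower (25%, against 11.4% of all tested genes). The 2 called were both named ABCI17, the counterpart of STAR1, which in rice and Arabidopsis pairs its ATP-binding domain with a membrane partner in aluminium tolerance. ABCI17-like Solyc06g068600.3 stood at 19.6, 17.1 and 16.4 CPM in WT and at 8.11, 8.17 and 6.17 CPM in nor-like1 (-1.24 ± 0.159, adjusted p = 0.00469). ABCI17 Solyc03g117810.4 stood at 10.5, 12.1 and 15.2 CPM in WT and at 5.83, 6.13 and 6.06 CPM in nor-like1 (-1.07 ± 0.176, adjusted p = 0.00905). In both genes every mutant library was below every WT library by a wide margin, and both calls were kept without any 1 library. The member named ALUMINUM SENSITIVE 3 (Solyc10g085950.2), the known membrane partner of STAR1 in Arabidopsis, was too low to test. It had 6 WT counts and 37 mutant counts, a 9.45-fold higher share of assigned counts. The 95% counting interval, which covers counting error only, was 3.95 to 27.4. This gene was chosen after its values were seen. With no low-count filter its adjusted p was 0.0248 (log2 fold change 3.18), by limma on every listed gene it was 0.0295, and in the authors' deposited table it was 0.00785. ABCI6 (Solyc06g048540.3), the SufC protein of plastid iron-sulfur assembly, overlapped between genotypes at 59.7 to 68.8 and 46.7 to 66.9 CPM (-0.19 ± 0.147, adjusted p = 0.385). ABCI21 (Solyc09g066470.4), an endoplasmic reticulum protein in Arabidopsis, was slightly higher in every mutant library, at 30.3 to 34.8 and 35.2 to 38.5 CPM (0.18 ± 0.101, adjusted p = 0.233).

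Of the 10 members with no letter, 5 were tested and 2 were lower (40%, against 11.4% of all tested genes). These 2 were ABCG5, given above, and L04 (Solyc02g087870.3), known by that name from its best hit. L04 stood at 33.5, 45.9 and 38.7 CPM in WT and at 19.2, 18.97 and 20.3 CPM in nor-like1 (-1.01 ± 0.136, adjusted p = 0.00524). The mutant libraries were nearly identical and below all WT libraries, and the call was kept without any 1 library. TGD3 (Solyc04g056650.4), the ATPase of the chloroplast lipid importer of Arabidopsis, stood at 52.3, 55.3 and 42.6 CPM in WT and at 36.2, 32.7 and 42.4 CPM in nor-like1. Its nor-like1 replicate 3 came just under WT replicate 3, and it was not called (-0.43 ± 0.145, adjusted p = 0.0717), while it was without WT replicate 3 (adjusted p = 0.0265). Among the 7 members with a hit named chloroplastic, ABCD2 was the 1 called (14.3%, against 21.9% of all tested genes). This group was formed after its values were seen.

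The 34 untested members never passed 1.95 CPM in any library, and their median total was 8 counts over the 6 libraries. Of these, 8 were listed in 1 genotype only, at totals of at most 3.18 counts, so none is a measured difference. The 6 listed only in nor-like1 were ABCC12-like Solyc12g036160.3 (3.18 counts in all), ABCG14-like Solyc08g005580.3 (2), ABCG10-like Solyc07g053300.1 (1), ABCG31-like Solyc06g076930.2 (1), ABCG25 Solyc11g018680.1 (0.14) and the unnamed Solyc05g025955.1 (1). The 2 listed only in WT were ABCB19-like Solyc03g122050.1 and ABCC14-like Solyc02g044050.1, with 1 count each. The counts are estimates that share multiply mapped reads between similar genes, so values of near-identical copies are uncertain.

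**Figure D4:**
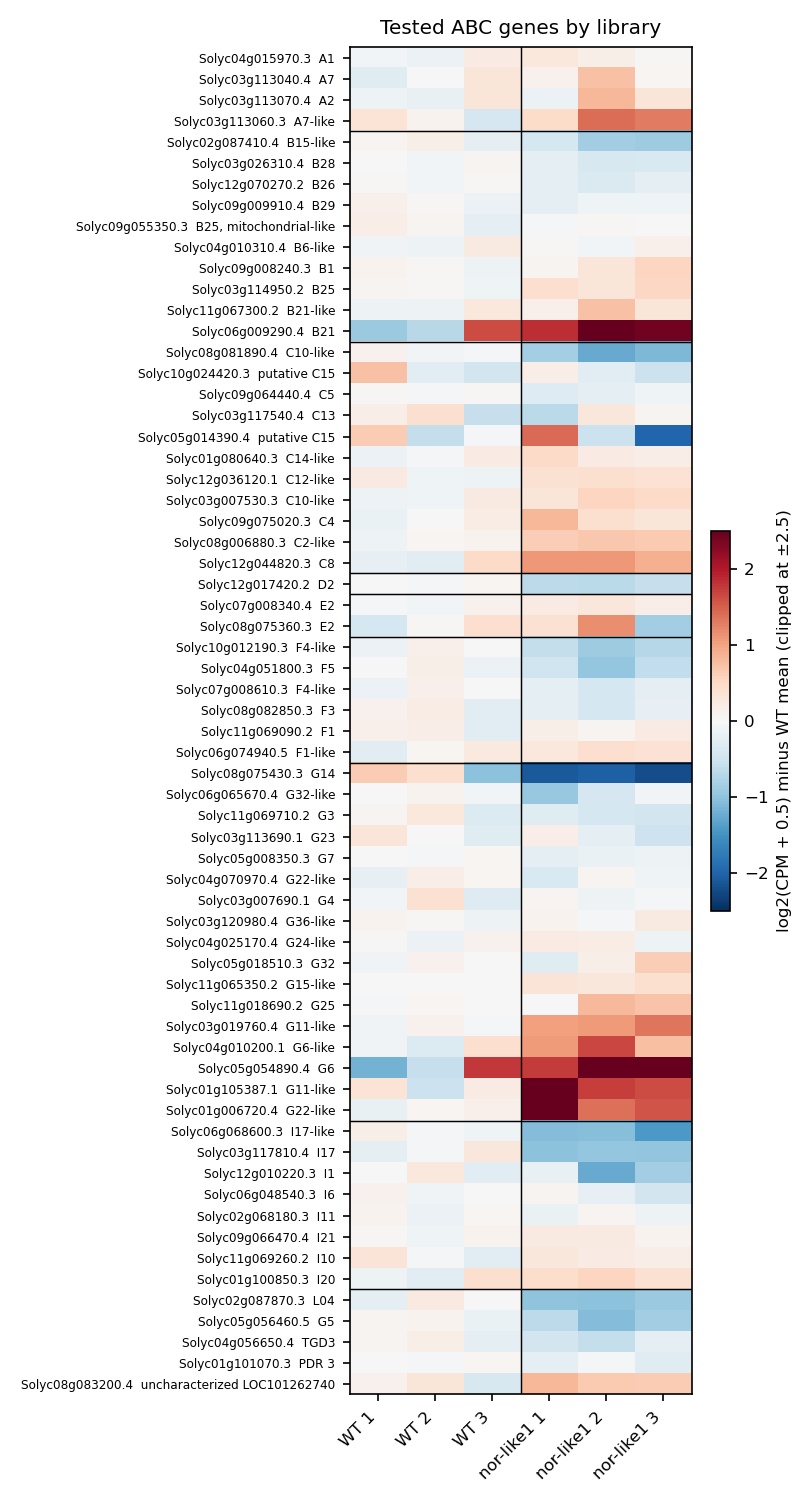
Difference of log2(CPM + 0.5) from the WT mean, per library (columns) for 64 of the 65 tested ABC genes (rows, by subfamily, black lines between blocks); red is above and blue below, clipped at ±2.5. ABCB21 and ABCG6 are red in WT replicate 3 as well as in all mutant libraries, ABCG14 is pale blue in WT replicate 3, and the called I17 pair and ABCD2 are blue in all mutant libraries.

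WT replicate 3 was the WT library nearest to the mutant mean for 30 of the 65 tested members (46.2%), compared with 50.6% of all tested genes, and for 8 of the 19 called ones (42.1%). Leaving it out raised the member calls to 14 higher and 11 lower, 15 of which were among the 19, and the share of all genes called from 21.9% to 28.5%. Leaving out WT replicate 1 or 2, or nor-like1 replicate 2 or 3, gave 3 to 5 members higher and 6 or 7 lower, with 6.85% to 9.94% of all genes called. Without nor-like1 replicate 1 the calls were 11 higher and 10 lower. The same 9 of the 19 members were called in all 6 of these fits and under every other setting tried: both ABCG11-like genes and ABCC2-like as higher, and ABCC10-like Solyc08g081890.4, ABCD2, both ABCI17 genes, L04 and ABCG5 as lower. No called member changed direction under any setting.

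**Figure D5:**
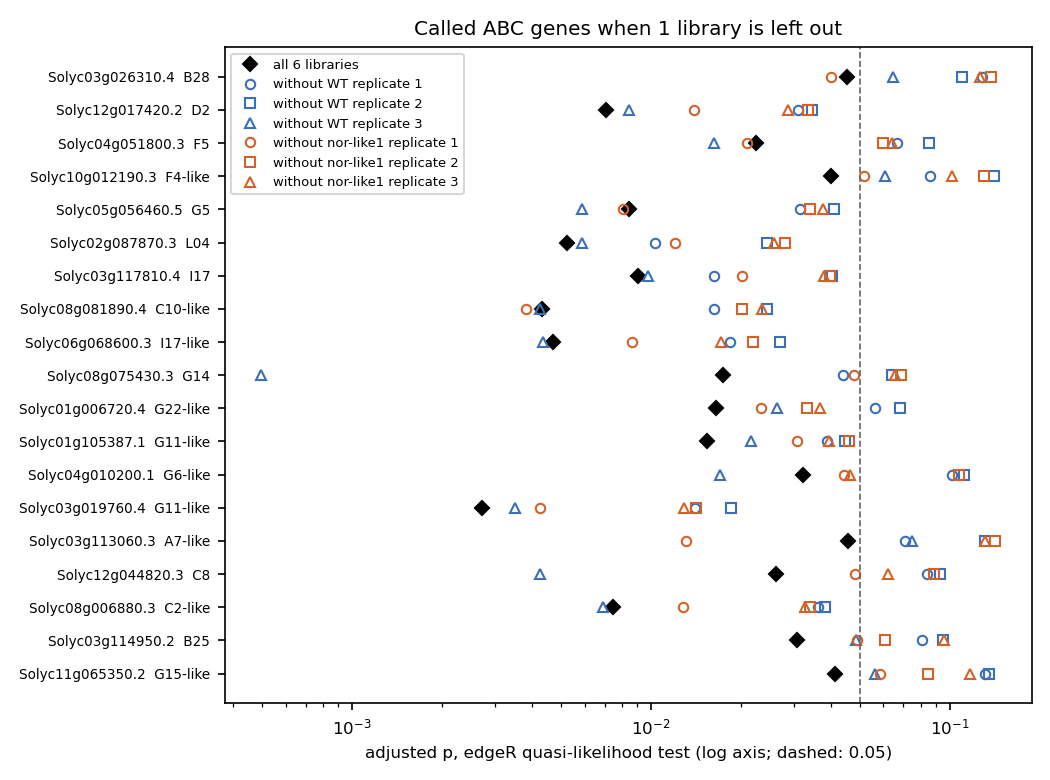
Adjusted p from edgeR (log axis, dashed line at 0.05) for the 19 called ABC genes with all 6 libraries (black diamonds) and with each library left out in turn (open symbols; blue for WT, orange for nor-like1). For 9 genes every symbol lies left of the line, and for ABCF4-like and ABCG15-like every open symbol lies right of it.

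Other transport lists were counted for the same libraries. Of 35 MATE exporters, a second family of plant efflux carriers, 23 were tested, with 4 higher and 5 lower (39.1% called, against 21.9% of all tested genes). Of 53 glutathione S-transferases, the enzymes that make the conjugates carried by C members, 42 were tested, with 7 higher and 6 lower (31.0% called). Of the 3 AUX/LAX auxin importers, LAX3 (Solyc11g013310.2) was tested and higher, at 30.9 ± 6.58 CPM in WT and 55.8 ± 9.36 CPM in nor-like1 (SD, n = 3 each; 0.85 ± 0.186 SE, adjusted p = 0.0212). A word match to PIN auxin efflux carriers gave 20 genes, some of them with other functions by name, of which 12 were tested, none was higher and 1 was lower (8.33% called).

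The authors' deposited table listed 98 of the 99 members, with 12 higher and 9 lower at its adjusted p below 0.05, against 18.0% of its 21668 genes. All 19 members called here had the same direction in the authors' deposited table and 18 were below 0.05 there. The exception, ABCF4-like Solyc10g012190.3, had an adjusted p of 0.11 in the authors' deposited table. The 3 members below 0.05 only there were ABCC4, ABCC10-like Solyc03g007530.3 and ALUMINUM SENSITIVE 3.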

How the data were processed

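Each library's deposited table gave expected counts and FPKM per gene. The submitters' processing notes name HISAT2, StringTie, Bowtie2 and RSEM without versions. No source used here gives the genome build, annotation or strand setting. Expected counts as deposited were rounded to whole numbers. FPKM values as deposited by the authors were used for levels between genes, in 3 WT and 3 nor-like1 libraries of 8503210 to 17578533 counts. Fold changes on the log2 scale, p-values and group scores stand in the authors' deposited comparison table, made with DESeq2 per its name; the scores, on a scale not given, were not used.

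Genotypes were compared with edgeR 4.0.16 in R 4.3.3 (robust quasi-likelihood F test with TMM scaling, after filterByExpr) over 16380 genes, with Benjamini-Hochberg adjustment and calls at 0.05, and the fit was tested on simulated data. SE is that of the log2 fold change. Alternatives used limma 3.58.1 and DESeq2 1.42.0. The members, lists and markers were chosen with earlier results of these data known. Named are SlNOR-like1, in each class the called members (up to 4 per direction by p) and the 2 of highest FPKM, the lipid and auxin names, and members listed in 1 genotype, except 1 tested member that is not reported here singly; others are marked as chosen after their values were seen. With 3 against 3 libraries an exact permutation test of 1 gene cannot go below 0.1, so the across-gene fit was used.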

Additional observations from a re-analysis of the deposited data

How the results depend on the processing

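The counts of 9 members higher and 10 lower stayed within 1.5 times under relative log expression or upper-quartile factors, no low-count filter, a 1 CPM filter, DESeq2, and limma on log2(FPKM + 1) or log2(FPKM + 0.1). With no low-count filter 17.3% of members tested were called, against 16.0% of all genes. Under the other settings just named the share was 26.2% to 32.3% of members, against 21.5% to 24.6% of all genes. Limma on every listed gene gave 5 higher and 9 lower, 14.1% of members, against 14.6% of all genes. A replicate block gave 5 higher and 7 lower, 18.5% of members, against 16.0% of all genes. Same-numbered libraries correlated at 0.222, -0.23 and 0.018 after removing group means, and unlike-numbered ones at -0.26 to 0.324. With 3 libraries per genotype these values cannot decide whether the libraries were paired. With 1 library left out, 3 to 14 members were higher and 6 to 11 lower. The signs of these uncalled members turned with 1 library left out, over log2 ranges of -0.01 to 0.22 (ABCF1), lowest without WT replicate 3, of -0.06 to 0.39 (ABCG32), lowest without nor-like1 replicate 3, of -0.18 to 0.99 (ABCE2 Solyc08g075360.3), lowest without nor-like1 replicate 2, of -1.29 to 0.70 (ABCC15 Solyc05g014390.4), lowest without nor-like1 replicate 1, and of -0.13 to 0.06 (ABCB25-like Solyc09g055350.3). ABCC15 was also negative under the block (-0.23) and by limma (-0.07 and -0.39), and ABCB25-like positive under upper-quartile factors (0.02). The cause was not tested. ABCB21 was called by DESeq2 (adjusted p = 0.0359) and limma on log2(FPKM + 1) (0.0498), ABCC4 by DESeq2 (0.0248) and without WT replicate 3 (0.0483), and ABCC10-like Solyc03g007530.3 by DESeq2 (0.034), with upper-quartile factors (0.0444) and on removal of WT replicate 3 (0.0147) or of mutant replicate 1 (0.0488). Finding members by description alone gave 95, of which 9 were higher and 10 lower. The 34 untested members had too few counts at this depth.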
